A study of Mus musculus with 2 samples.

Results

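Somatostatin-producing delta cells with little pancreatic polypeptide transcript were examined in control mouse islets at 9 days of age. These cells were chosen by their own hormone counts. A control barcode was kept when it held at least 6825 unique molecular identifiers (UMIs, each marking 1 captured transcript), at least 500 detected genes and at most 15% mitochondrial UMIs. Of the 2496 control cells that passed, 343 had at least 5% of their UMIs from Sst, under 5% from Ppy, under 5% from Gcg and under 5% from Ins1 and Ins2 together. These 343 cells were 13.7% of the control cells (exact Clopper-Pearson 95% interval 12.4% to 15.2%, counting error only) and 6.26% of the 5483 cells of the series. The hormone thresholds fixed the Sst, Ppy, Gcg and insulin values of these cells, so those values are given as descriptions only.

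The series profiled single islet cells that carried the tdTomato reporter, sorted by flow cytometry and captured with 10x Chromium 3' v3.1 chemistry, to ask what loss of the LIM-homeodomain gene Isl1 does to the endocrine cells. The control mice had the genotype Neurod1 Cre/+; Isl1f/+, and the mutants, named Isl1CKO, had Neurod1 Cre/+; Isl1f/f. Both genotypes thus carried 1 Cre allele driven from Neurod1, a gene of endocrine and neuronal cells, and the controls carried 1 floxed Isl1 allele, so they were neither free of Cre nor known to have both Isl1 alleles intact. Pancreases of pups were taken 9 days after birth, actinomycin D was present during dissociation, and 6 samples per genotype were pooled into 1 library. With 1 library per genotype and all 343 cells from 1 pool, no test was possible. Every interval below is an exact 95% interval for counting error alone, so spread between animals cannot be seen.

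Delta cells are a small endocrine population of the islet. They release somatostatin, which acts on neighbouring alpha and beta cells through Gi-coupled receptors and restrains the secretion of glucagon and insulin. Hhex is a homeodomain gene needed for delta cell identity, Ghsr encodes the receptor through which ghrelin acts on delta cells, and Rbp4, Ptprz1 and Arg1 are transcripts used as delta cell markers. Pancreatic polypeptide (Ppy) and peptide YY (Pyy) are related peptides of the neuropeptide Y family, encoded by neighbouring genes on chromosome 11, and Ppy marks gamma cells.

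The 250 bases upstream of the starts of Sst, Ppy and Pyy are printed here because these 3 hormone genes set the cells apart or were carried by all of them. The sequences are from RefSeq on GRCm38.p6, all from the minus strand and written 5′ to 3′. Capitals mark 2 short motifs searched on both strands. TGACGTCA is the palindromic cAMP response element, and TAAT is the core letters bound by many homeodomain proteins; they do not overlap. The Sst window was chr16:23890845-23891094, the Ppy window was chr11:102101320-102101569 and the Pyy window was chr11:102107833-102108082, the last taken before the farther upstream of 2 RefSeq starts.
Sst: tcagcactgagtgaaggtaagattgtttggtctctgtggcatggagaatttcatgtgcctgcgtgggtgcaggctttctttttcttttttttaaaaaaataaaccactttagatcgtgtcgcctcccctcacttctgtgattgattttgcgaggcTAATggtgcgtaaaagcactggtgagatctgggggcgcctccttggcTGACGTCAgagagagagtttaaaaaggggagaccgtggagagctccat
Ppy: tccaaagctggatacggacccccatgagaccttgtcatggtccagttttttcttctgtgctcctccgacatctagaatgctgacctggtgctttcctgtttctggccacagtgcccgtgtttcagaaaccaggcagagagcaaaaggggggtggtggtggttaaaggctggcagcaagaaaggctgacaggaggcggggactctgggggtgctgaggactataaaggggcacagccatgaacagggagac
Pyy: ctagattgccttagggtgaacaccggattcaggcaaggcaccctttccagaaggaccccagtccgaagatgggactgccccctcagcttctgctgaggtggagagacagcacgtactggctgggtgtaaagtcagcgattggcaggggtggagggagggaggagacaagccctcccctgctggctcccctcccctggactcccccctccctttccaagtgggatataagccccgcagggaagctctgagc
The Sst window held 1 TGACGTCA, at bases 48 to 41 before the start, and 1 TAAT, at bases 95 to 92. Neither motif was in the Ppy or the Pyy window. Among 32851 RefSeq windows of the same length, 508 (1.55%) held TGACGTCA and 18041 (54.9%) held TAAT. A match describes the letters only, and absence says nothing about a factor.

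In the delta cells low in Ppy, UMIs per cell ran from 6993 to 43490 with a median of 14289, and detected genes from 1803 to 6991 with a median of 3703. The median mitochondrial share was 1.37% and the highest 5.82%. They were set against 4 other classes of control cells defined by the same 5% thresholds: 187 cells rich in both Sst and Ppy (called double-rich), 195 gamma cells (Ppy only), 609 alpha cells (Gcg only) and 876 beta cells (insulin only). Because hormones take a large and unequal part of the UMIs, each level below is a gene's summed UMIs per 1000000 UMIs outside 8 islet hormone genes (Ins1, Ins2, Gcg, Sst, Ppy, Pyy, Iapp and Ghrl). Median UMIs outside these hormones were 10131 in the delta cells low in Ppy, 9938 in double-rich, 12134 in gamma, 13920 in alpha and 14336 in beta cells. Scrublet called 5 of the 343 cells (1.46%) doublets, against 63 of 2496 control cells (2.52%). None of the 343 barcodes was shared with the Isl1CKO library, in which 4 control cell barcodes occurred.

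Endothelial, mesenchymal and erythroid markers, and epsilon cell markers other than Ghrl, were near 0 in the delta cells low in Ppy. Acinar and duct markers and 1 immune gene were not. Of the endothelial list, whose summed level was 1.37, no UMI was seen in 338 of 343 cells, and Kdr and Cdh5 were at 0. The mesenchymal list, summed level 21.8, was without a UMI in 337 cells, and all 32 Dcn UMIs came from 1 cell that Scrublet called a doublet. The immune list summed to 241, of which C1qa made 240.3, while Ptprc, Cd74 and C1qb were at 0. That list summed to 273 in double-rich, 72.5 in gamma, 82.7 in alpha and 122 in beta cells. The acinar list summed to 226, against 479 in double-rich, 572 in gamma, 174 in alpha and 200.1 in beta cells, with the part of acinar RNA in any comparison not tested. The erythroid list summed to 1.37 in these cells and 1306 in beta cells. The duct list summed to 479, with Krt7 at 254, Sox9 at 127 and Spp1 at 87.9, and 8 of the 343 cells had no UMI of it. Its sum was 492 in double-rich, 534 in gamma, 305 in alpha and 473 in beta cells. Epsilon cell genes other than Ghrl (Irs4, Mboat4 and Anxa13) summed to 1.09, and 339 of the 343 cells had no UMI of them.

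Beside Sst, the cells carried Pyy throughout, and most carried some Ppy. Sst took 5.04% to 35.6% of a cell's UMIs, with a median of 12.0%. Pyy, which the rule did not use, took 1.97% to 28.2%, with quartiles of 8.27% and 14.2% around a median of 11.01%. No cell was without Pyy. The median Pyy share was 10.1% in double-rich cells, 19.5% in gamma cells, 0.528% in alpha cells and 0.115% in beta cells. Iapp, the gene of islet amyloid polypeptide that beta cells co-secrete with insulin, took a median of 2.26% (0.0882% to 7.39%), against 3.25% in beta, 2.14% in double-rich, 0.586% in gamma and 0.0634% in alpha cells. These Pyy and Iapp shares are of all UMIs, not of UMIs outside the hormones. Insulin alone took a median of 65.6% in beta cells and Ppy 18.8% in gamma cells, which lowers the other shares there. Ghrl was found in 37 cells and never above 0.153%. Median Gcg was 0.0651% and median insulin 0.268%.

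Ppy was spread over the whole range below the threshold instead of forming a low group apart. Its share ran from 0.00517% to 4.96%, with a median of 1.90% and quartiles of 0.289% and 3.43%. By count, 51 cells lay under 0.1%, 76 between 0.1% and 1%, and 216 between 1% and 5%. On the other side of the threshold, 47 double-rich cells had 5% to 6% Ppy, against 48 cells with 4% to 5%. For reference, the median Ppy share was 0.0797% in alpha and 0.0228% in beta cells. Free RNA in the droplets, profiled from control barcodes of 1 to 100 UMIs, was 3.00% Ppy, 4.55% Pyy and 1.60% Sst. Had the insulin UMIs of the delta cells all been free RNA, free RNA would have made 0.730% of their UMIs. That share would bring 0.0219% Ppy, 0.0332% Pyy and 0.0117% Sst, beside medians of 1.90%, 11.01% and 12.0% in all 343 cells and of 0.0480% Ppy in the 51 cells under 0.1% Ppy.

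Across the 343 cells, which share 1 library, hormone UMIs were taken per UMI outside the islet hormone genes. On this scale Sst had a Spearman rho of 0.288 with Pyy and 0.379 with Iapp, and Pyy had 0.281 with Iapp. Ppy had a rho of 0.0384 with Sst, 0.0247 with Pyy and 0.0669 with Iapp. All were divided by the same count in each cell, which can by itself tie them together, so these values only describe the cells. The plot of Sst against Ppy shows each control cell and the thresholds.

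**Figure D1:**
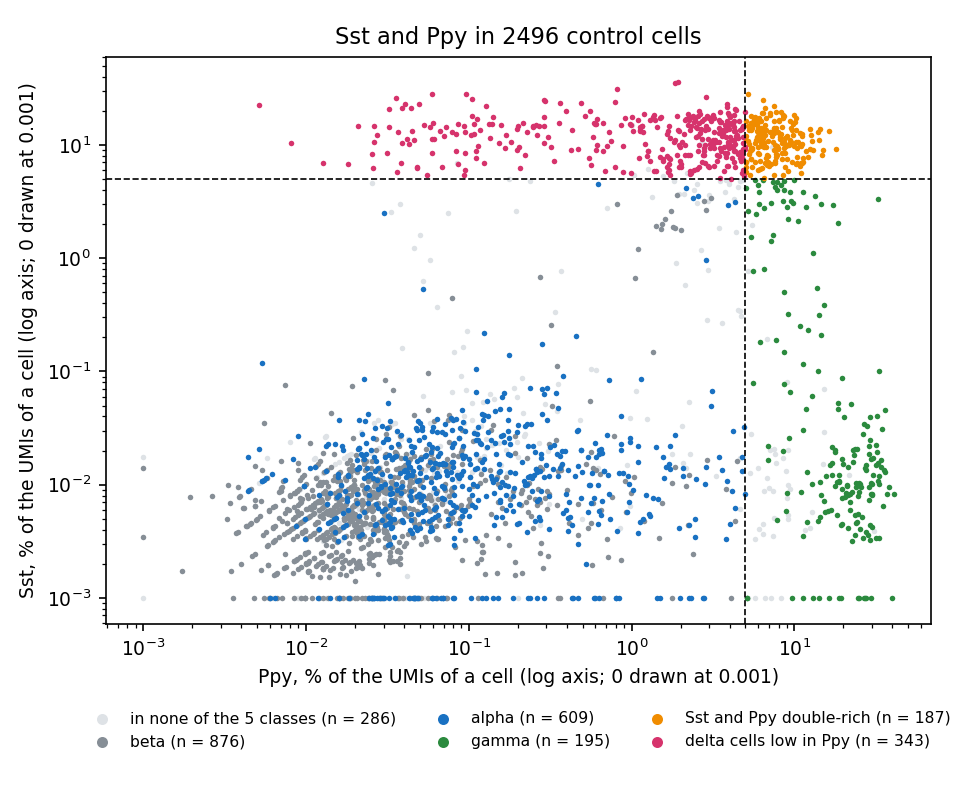
Sst (vertical) against Ppy (horizontal) as percent of the UMIs of each of 2496 control cells, both on log axes, with cells at 0 drawn at 0.001 and dashed lines at the 5% thresholds. Colours mark the 5 hormone-defined classes and the remaining cells. The 343 delta cells low in Ppy run from 0.00517% to 4.96% Ppy and meet the 187 double-rich cells at the threshold.

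The label was checked against 5 delta cell markers outside the rule, and all 5 were at least 2-fold higher in these cells than in gamma, alpha and beta cells. Hhex (chr19:37434810-37440731, plus strand) had a level of 648 in the delta cells low in Ppy, 637 in double-rich, 142 in gamma, 4.56 in alpha and 8.50 in beta cells. That is 4.57-fold over gamma, 142-fold over alpha and 76.2-fold over beta cells. Cell by cell, Hhex ran from 0 to 2021, with a median of 592 and quartiles of 353 and 893. Rbp4 (chr19:38116629-38125281, minus strand), which encodes the plasma carrier of retinol, had a level of 12777 in the delta cells low in Ppy, 15363 in double-rich, 4811 in gamma, 2548 in alpha and 1277 in beta cells. Its median by cell was 11905, and even the lowest cell was at 1244. These ratios are 2.66-fold, 5.01-fold and 10.01-fold over gamma, alpha and beta cells.

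Ghsr (chr3:27371351-27378010, plus strand) was sparse in every class. Its level was 47.5 in the delta cells low in Ppy, 48.9 in double-rich, 9.01 in gamma, 0.223 in alpha and 0.468 in beta cells. The alpha value rests on 2 UMIs and the beta value on 6, so the ratio to alpha cells, 7.74 on the log2 scale, has an interval of 5.86 to 10.79. Ptprz1 (chr6:22875502-23052916, plus strand), a receptor-type tyrosine phosphatase gene, had a level of 172 in the delta cells low in Ppy, 205 in double-rich, 49.5 in gamma, 1.00 in alpha and 2.81 in beta cells. Arg1 (chr10:24915221-24927484, minus strand), the cytosolic arginase gene, had a level of 1094 in the delta cells low in Ppy, 1259 in double-rich, 339 in gamma, 113 in alpha and 25.5 in beta cells. Arg1 was thus 3.23-fold over gamma, 9.68-fold over alpha and 42.9-fold over beta cells, and its quartiles by cell were 670.3 and 1527.

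The markers were found together in single cells. All 5 had a UMI in 87 of the 343 cells (25.4%), 4 of them in 167 (48.7%), 3 in 84 (24.5%) and 2 in 5 (1.46%), and no cell had fewer. Of the 187 double-rich cells, 105 had 4 and 43 had all 5. Gamma cells were mixed, with 4 of the markers in 31 and all 5 in 12 of 195. Among 609 alpha cells 3 had 4 or 5 of the markers, and among 876 beta cells 13 did. Rbp4 did not separate the classes by detection, with a UMI in 100% of the delta cells low in Ppy and of alpha cells, 98.5% of gamma and 85.96% of beta cells. Hhex had a UMI in 96.2% of the delta cells low in Ppy, Arg1 in 99.7%, Ptprz1 in 67.6% and Ghsr in 34.4%. The same shares were 2.96%, 54.7%, 1.31% and 0.328% in the deeper alpha cells, taken as a class that should lack Hhex, Ptprz1 and Ghsr. With each cell thinned to 3000 UMIs outside the hormones, Hhex was left in 79.6% of the delta cells low in Ppy, 84.0% of double-rich, 22.6% of gamma, 0.821% of alpha and 1.83% of beta cells. No delta, double-rich, gamma or alpha cell and 2 beta cells were too shallow for the thinning. Arg1 after thinning was in 91.3% of the delta cells low in Ppy and 23.6% of alpha cells, so its share in alpha cells is above that of Hhex by far.

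Of 10 other genes known from delta cells, 5 could be compared with each of the other classes. Against gamma cells 2 of the 5 were higher and none lower, beside 3.81% and 2.15% of all genes compared. All 5 were higher against alpha cells (all genes 8.69%), and 4 were higher and 1 lower against beta cells (all genes 8.95% and 5.70%). The lower gene was Pdx1, at 192 beside 502 in beta cells. None of the 5 passed 2-fold against double-rich cells, beside 0.439% of all genes compared. Spock3, a matrix proteoglycan gene, had a level of 87.9 in the delta cells low in Ppy, 116 in double-rich, 27.02 in gamma, 0.890 in alpha and 1.56 in beta cells. Nhs had 34.1, 37.8, 13.9, 0.556 and 1.56 in the same order. Ffar4, a receptor for long-chain fatty acids, had 268, 289, 187, 99.9 and 67.1. Casr, the calcium-sensing receptor gene, had a level of 32.2 beside 31.1, 14.4 and 14.3 in gamma, alpha and beta cells, so it set these cells apart from alpha and beta but not from gamma cells. Crhr2, a receptor for urocortins including Ucn3, had 49 UMIs in 44 cells, a level of 13.4, which is below the minimum for comparison. No UMI of Cckbr or Npy4r was seen, which allows a level of up to 0.819 (3 UMIs). The plot of delta cell genes shows the 5 classes beside each other.

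**Figure D2:**
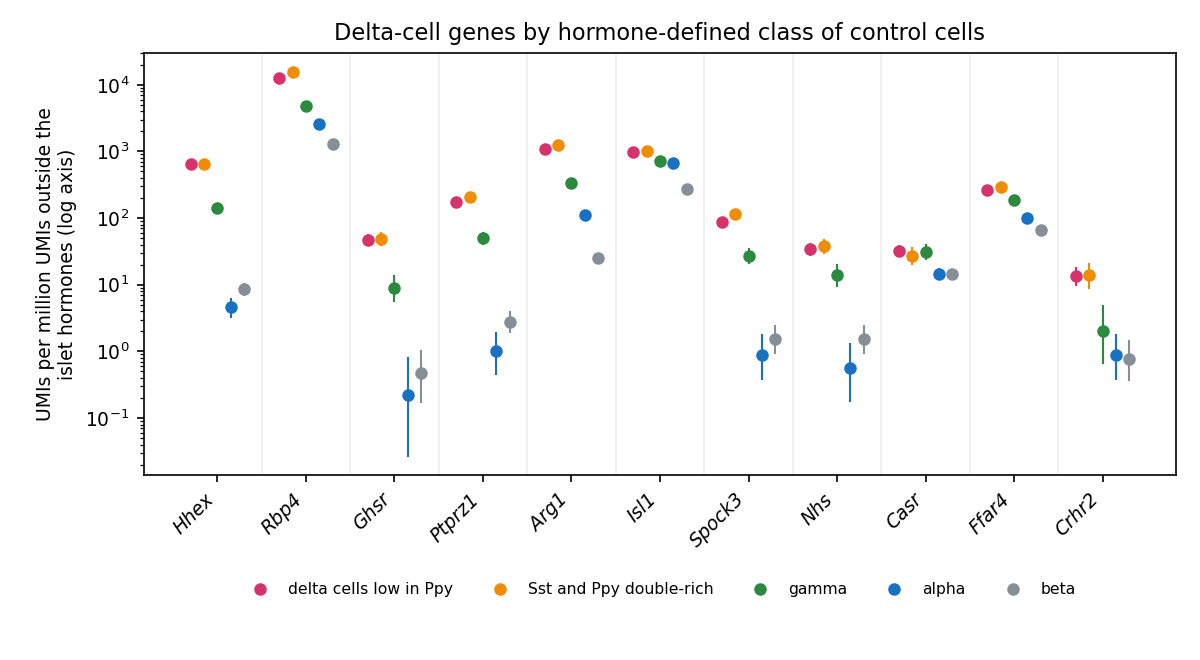
Level of 11 delta cell genes (UMIs per 1000000 UMIs outside the islet hormones, log axis) summed over the cells of each of 5 hormone-defined control classes; bars are exact 95% counting intervals. Hhex, Ghsr, Ptprz1 and Spock3 stand well over 10-fold above alpha and beta cells in the delta cells low in Ppy, and the double-rich values lie close to them.

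Isl1 itself (chr13:116298281-116309689, minus strand), the gene floxed in this series, was present in nearly every one of these cells. Its level was 976 in the delta cells low in Ppy, 1015 in double-rich, 729 in gamma, 665 in alpha and 269 in beta cells, with a median by cell of 922 and quartiles of 599 and 1289.7. The ratio on the log2 scale was 0.42 over gamma, 0.55 over alpha and 1.86 over beta cells, so only the last passed 2-fold. Over all cells of each library the Isl1 level was 543 in the control and 522 in Isl1CKO. Which exon is floxed is not stated in the labels, so 3' counts check neither the deletion nor the labels.

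The gamma class is not uniform, and this bears on every comparison with it. Of the 195 gamma cells, 143 had under 0.1% Sst and 52 had 0.1% to 5%. The 52 cells held delta cell genes near the levels of the delta cells low in Ppy. Hhex was at 564 in the 52 and 22.1 in the 143, Ghsr at 39.0 and 0.525, Ptprz1 at 173 and 14.7, and Arg1 at 1253 and 79.8. Ttr went the other way, at 395 and 3893. Against the 143 gamma cells low in Sst alone, the delta cells low in Ppy had Hhex 29.4-fold, Ly6h 27.7-fold, Ehf 21.7-fold and Cd24a 16.5-fold higher. The Ghsr ratio to these 143 cells was 90.4-fold but rests on 1 gamma UMI. The 52 cells were also shallower, with a median of 12945.5 UMIs against 25114, and what part this has was not tested.

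Genes were then counted by size, 2-fold or more, among genes whose level in the higher class was at least that of 50 UMIs in the smaller sum. Against double-rich cells, 18 of 6154 genes were higher (0.292%) and 9 lower (0.146%), 27 in all (0.439%). Against gamma cells, 275 of 7216 were higher (3.81%) and 155 lower (2.15%), 430 in all (5.96%). Against alpha cells, 758 of 8722 were higher (8.69%) and 365 lower (4.18%), 1123 in all (12.9%). Against beta cells, 780 of 8715 were higher (8.95%) and 497 lower (5.70%), 1277 in all (14.7%). The number of genes past 2-fold was thus lowest against double-rich cells, where the middle 95% of genes lay between −0.41 and 0.48 on the log2 scale. For beta cells that range was −1.80 to 2.43. The median gene differed by −0.0025, 0.059, 0.13 and 0.026 in the 4 comparisons.

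The 10 genes ranked highest and the 10 ranked lowest against gamma cells alone add to the markers. Frzb, a secreted Wnt antagonist gene, had a level of 281 in the delta cells low in Ppy, 313 in double-rich, 58.1 in gamma, 2.78 in alpha and 166 in beta cells. Fam46a was at 447 beside 102, 38.2 and 151 in gamma, alpha and beta cells. Among the lowest, Edn3, an endothelin gene, was at 3.28 beside 73.3 in gamma and 148 in alpha cells. Ctxn2 was at 6.55 beside 116 and 169, and Higd1a, a mitochondrial hypoxia-induced gene that overlaps an exon on the opposite strand, at 3.00 beside 99.9 and 358. Galnt13, a glycosyltransferase gene, was at 0.819 beside 51.6 in gamma cells. Sv2b, a synaptic vesicle gene, rests on 1 UMI in the 343 cells beside a level of 21.3 in gamma cells.

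The choice of scale matters for these splits. Of the genes past 2-fold, 66.7% were higher in the delta cells low in Ppy against double-rich, 64.0% against gamma, 67.5% against alpha and 61.1% against beta cells. Scaled to all UMIs, hormones included, the shares were 86.7%, 87.5%, 69.2% and 98.03%, and the median gene itself moved to 0.075, 0.44, 0.16 and 1.24. Against gamma cells low in Sst, 350 of 6317 genes were higher (5.54%) and 167 lower (2.64%). Of the 275 genes higher and 155 lower against all gamma cells, 224 and 132 were also so against these.

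Of 7152 genes compared with all 3 other endocrine classes, 143 were at least 2-fold higher in the delta cells low in Ppy than in gamma, alpha and beta cells alike (2.00%), and 41 at least 2-fold lower in all 3 (0.573%). The 25 highest by the smallest lower interval bound included 4 of the 5 markers, Hhex, Ghsr, Arg1 and Ptprz1. Ly6h, which encodes a GPI-anchored Ly6 family protein, had a level of 480.3 beside 68.4, 3.78 and 6.01 in gamma, alpha and beta cells. Cd24a, a surface glycoprotein gene, was at 1109.9 beside 255, 13.7 and 46.5 and had a UMI in all 343 cells. Ehf, an ETS family transcription factor gene of epithelia, was at 286 beside 57.3, 13.4 and 5.07. Fam159b was at 1441 beside 407, 18.6 and 132. These genes were close to their level in double-rich cells, which held 449, 1082, 273 and 1687 in the same order.

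Regulators, channel subunits and adhesion genes were also among the 25. Mef2c, a MADS box transcription factor gene, was at 71.5 beside 8.19 in gamma cells and 2.89 in beta cells. In alpha cells Mef2c had 1 UMI, and the log2 ratio of 9.33 has an interval of 6.84 to 14.64. Dpp6, which encodes an auxiliary subunit of A-type potassium channels, was at 236 beside 47.9, 18.5 and 5.93 in gamma, alpha and beta cells. Kcna5, a voltage-gated potassium channel gene, was at 22.1 beside 2.87, 3.56 and 0.234. Cacna2d2, a calcium channel auxiliary subunit gene, was at 38.2 beside 7.37, 1.22 and 2.11, and Syt1, the calcium sensor of synaptic vesicle fusion, at 68.5 beside 11.5, 9.68 and 2.81. Dscam, a neuronal cell adhesion gene, was at 48.3 beside 9.01, 0.334 and 0.936. The 25 also held Sall1, a zinc finger developmental regulator, at 23.8 beside 3.68, 0.334 and 1.64, and the imprinted gene Mest at 169 beside 38.1, 24.7 and 2.03. Slc16a7, a monocarboxylate transporter gene, was at 25.9 beside 3.68, 1.22 and 0.468, and Ppp1r14c, a phosphatase inhibitor gene, at 112 beside 29.5, 5.34 and 10.3.

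The remaining genes of the 25 were Scara3, Itih5, Luzp2, Oit1, Tmem132b, Cfap61 and Tcea3. Their levels in the delta cells low in Ppy ran from 23.2 (Luzp2) to 72.9 (Oit1). Each was lower in the other 3 classes, for example Tcea3 at 37.95 beside 8.19, 0.668 and 0.936. Cfap61, Mest, Cacna2d2, Ppp1r14c, Slc16a7 and Dscam overlap exons of genes on the opposite strand in GENCODE M21, and whether the counting used strand is not stated in the labels, so their counts are uncertain. The same holds for other genes named here, among them Neurog3, Scn9a, Rab3b, Cacna1h, Pcsk2, Syt4, Krt7, Prox1, Jun, Sv2b, Ube2c and Prc1.

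The 15 genes ranked as lowest were led by Lpl. Lpl, the lipoprotein lipase gene, had a level of 15.02 beside 276, 1042 and 313 in gamma, alpha and beta cells. Ffar1, a receptor for long-chain fatty acids on beta cells, was at 1.09 beside 32.8, 36.1 and 152. Slc30a8, the granule zinc transporter gene, was at 32.2 beside 139, 905 and 1469. Cadps, a priming factor of dense-core granules, was at 5.19 beside 65.9, 83.01 and 88.5, and Robo2, a Slit receptor gene, at 9.28 beside 76.2, 131 and 75.2. Ttr, the transthyretin gene whose product carries thyroid hormone and retinol-bound Rbp4, was at 362 beside 3122, 43574 and 2993, which is 120.3-fold lower than in alpha cells.

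Kctd12b was at 7.65 beside 178, 173 and 151, Ociad2 at 7.92 beside 111, 129 and 499.1, Ror2, a Wnt receptor gene, at 1.09 beside 25.8, 14.02 and 16.6, and Sphkap at 39.9 beside 177, 386 and 349. The 3 beta-thymosin entries, Tmsb15l, Tmsb15b1 and Tmsb15b2, were in the 15 as well. They share exons on the same strand, so their separate counts are uncertain. Ell2, which also overlaps other exons, and Dock11 complete the 15. The heat map of ranked genes shows that the double-rich column resembles that of the delta cells low in Ppy in both blocks.

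**Figure D3:**
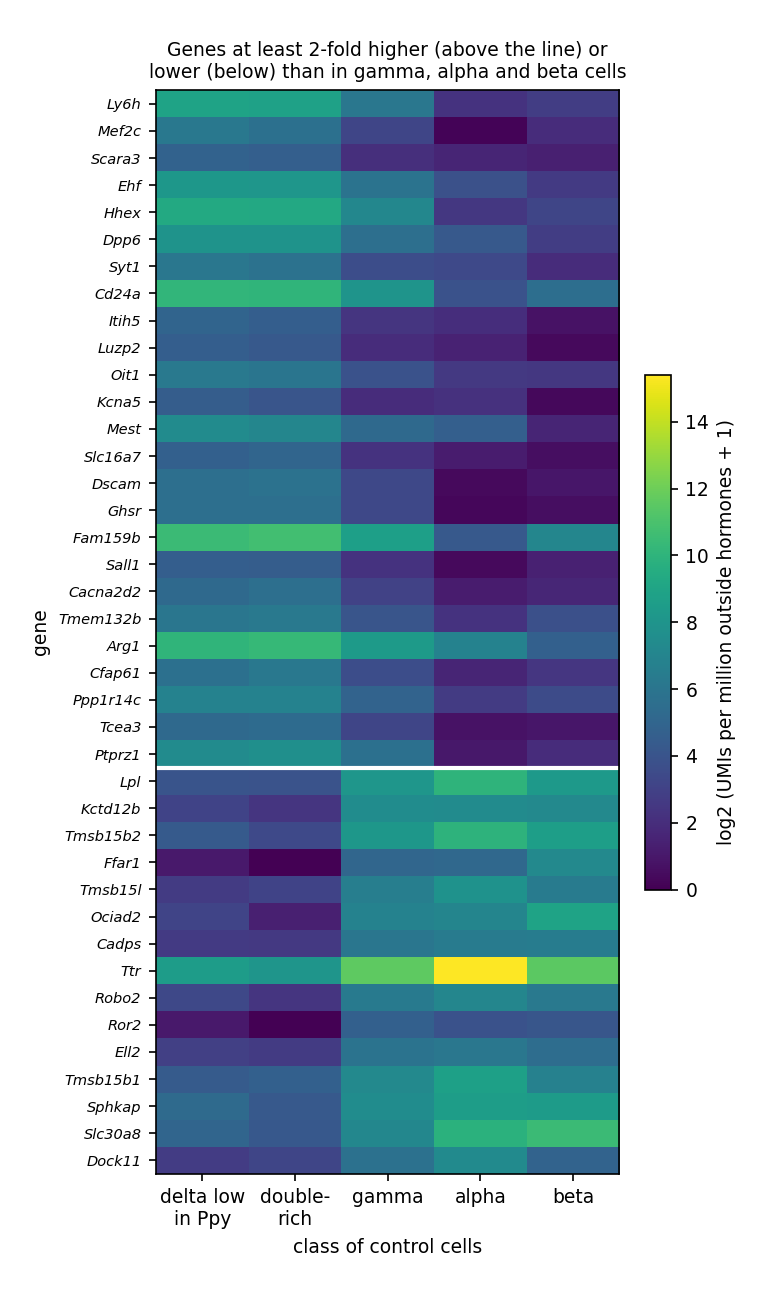
Level of the 25 genes ranked highest (above the white line) and the 15 ranked lowest (below it) against gamma, alpha and beta cells alike, as log2 of UMIs per 1000000 outside the islet hormones plus 1, in 5 classes of control cells (columns). For Ly6h the 5 levels are 480.3, 449, 68.4, 3.78 and 6.01, and for Lpl 15.02, 14.4, 276, 1042 and 313, in the order delta low in Ppy, double-rich, gamma, alpha and beta.

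Several factors of alpha and beta cells were low in the delta cells low in Ppy. Irx1 and Irx2, alpha cell homeobox genes, were at 3.00 and 8.19 beside 224 and 204 in alpha cells, 74.5-fold and 24.9-fold lower. Pou3f4, another alpha cell homeobox gene, was at 3.55 beside 81.7. Mnx1, a motor neuron and beta cell homeobox gene, was at 1.64 beside 49.7 in beta cells. Nkx6-1, a beta cell factor, was at 31.4 beside 389 in beta cells and 117 in gamma cells. Mafa and Pax4 had no UMI, which allows a level of up to 0.819 each.

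Other factors were higher than in some or all of those classes. Neurog3, the gene that starts the endocrine programme in progenitors, had a level of 158 in the delta cells low in Ppy, 137 in double-rich, 46.3 in gamma, 9.79 in alpha and 4.76 in beta cells. It had a UMI in 67.3% of the delta cells low in Ppy and 7.22% of alpha cells, and after thinning in 37.0% and 2.13%. Pdx1, shared by beta and delta cells, was at 192 beside 18.03 in alpha, 106 in gamma and 502 in beta cells, an intermediate value. Rfx3, a factor for ciliated and endocrine cells, was at 70.7 beside 27.02, 34.2 and 30.9 in gamma, alpha and beta cells, and Insm1, a zinc finger endocrine factor, at 209 beside 92.1, 81.7 and 154. Glis3, a zinc finger factor of beta cells, was at 45.9 beside 8.57 in alpha and 47.03 in beta cells. Meis2 was at 769 beside 558, 384 and 263. Pax6 and Foxa2, factors common to islet cells, were under 2-fold in these comparisons: Pax6 was at 388 beside 379.96, 323 and 429, and Foxa2 at 138 beside 136, 132 and 109.9.

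Of the islet transcription factor list, 4 were higher and 5 lower of 26 compared with gamma cells, with a list median of 0.39 on the log2 scale against 0.059 over all genes. In share, 4 of 26 and 5 of 26 stand beside 3.81% and 2.15% of all genes compared. The list holds Hhex and Pdx1, which were already counted above as delta cell genes. Against alpha cells 9 were higher and 6 lower of 27 (median 0.27 against 0.13), and against beta cells 8 higher and 6 lower of 24 (median 0.29 against 0.026). Against double-rich cells 2 of 23 were higher, Nkx6-1 among them, and none lower, beside 0.292% and 0.146% of all genes compared. Prox1 and Fev set the cells apart from beta cells, at 207 and 82.5 beside 60.8 and 25.4. Etv1, listed as a gamma cell gene, was at 262 beside 384 in gamma, 499.97 in alpha and 18.3 in beta cells.

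**Figure D4:**
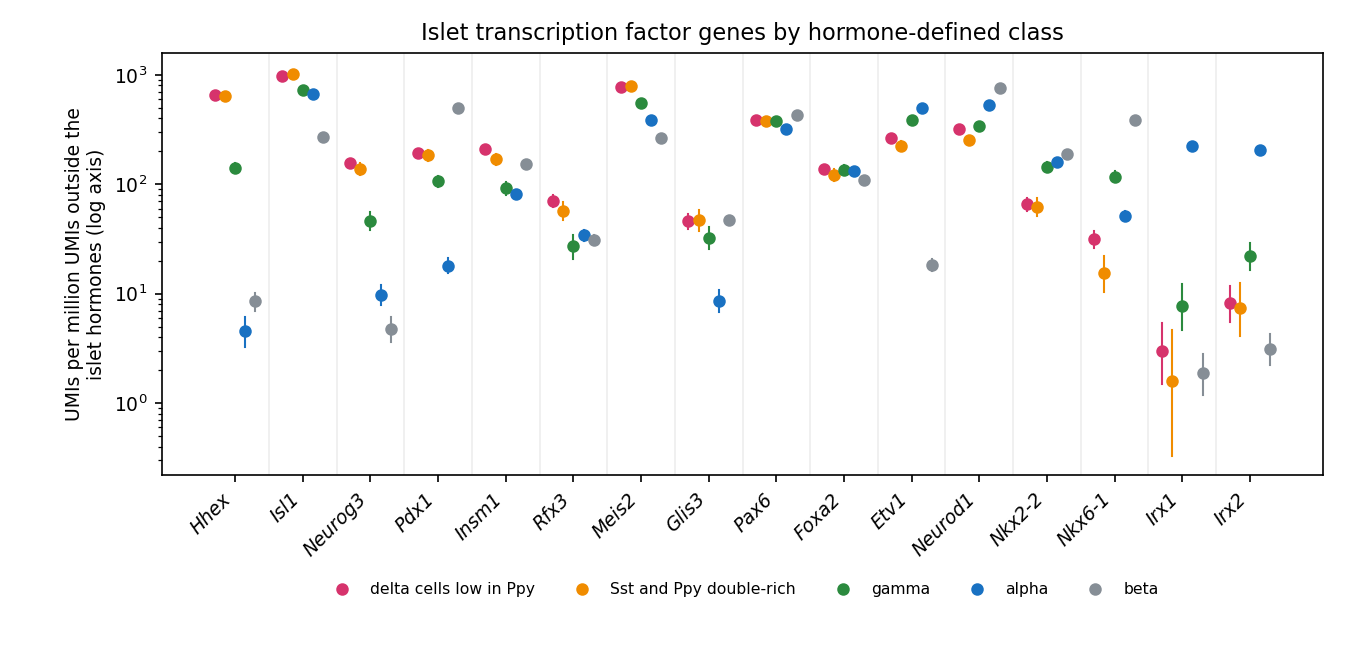
Level of 16 islet transcription factor genes (UMIs per 1000000 UMIs outside the islet hormones, log axis) in 5 hormone-defined classes of control cells, with exact 95% counting intervals. Irx1 and Irx2 are far above the delta cells low in Ppy in alpha cells, and Pax6 and Foxa2 differ little between classes.

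Genes that mark alpha and beta cells were mostly lower than in those cells. Of the alpha cell list outside the hormones, 9 of 10 genes compared with alpha cells were lower (median −4.61), against 4.18% of all genes compared. Of the beta cell list outside the hormones, 8 of 9 compared with beta cells were lower (median −5.51), against 5.70% of all genes compared. Iapp was left out with the hormones. Slc2a2, the glucose transporter gene of beta cells, was at 6.28 beside 1203 in beta cells. Ucn3, the urocortin gene of mature beta cells, was at 1.64 beside 496, and G6pc2, an islet glucose-6-phosphatase gene, at 2.73 beside 942. Of the gamma cell list outside the hormones, none of 3 genes passed 2-fold against gamma cells, beside 5.96% of all genes compared.

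Receptors for circulating and local signals went in both directions. Shares of all genes past 2-fold, for comparison with this and the lists below, were 3.81% higher and 2.15% lower against gamma, 8.69% and 4.18% against alpha, and 8.95% and 5.70% against beta cells, and the medians of all genes were 0.059, 0.13 and 0.026. Of the receptor list, 3 of 10 compared with gamma cells were higher and none lower, 4 of 11 higher and 2 lower against alpha cells, and 4 of 16 higher and 7 lower against beta cells. The list holds Ghsr, Casr and Ffar4, which were already counted above as delta cell genes. List medians were 0.51, 0.69 and −0.76. Adra2a, the alpha-2A adrenergic receptor gene, was at 30.04 beside 5.32, 1.11 and 90.2 in gamma, alpha and beta cells. Sstr3, a somatostatin receptor gene, was at 37.4 beside 26.6, 29.2 and 28.5. Sstr2, the main somatostatin receptor of alpha cells, was at 2.18 beside 28.7 in alpha cells, and Sstr1 at 12.01 beside 6.55, 2.67 and 0.234. Gria2, an AMPA receptor subunit gene, was at 184 beside 179, 379.8 and 19.4. Gipr, the receptor gene for the incretin GIP, was at 48.3 beside 38.5, 29.9 and 76.8, and Glp1r had 15 UMIs. Galr1, a galanin receptor gene, had 1 UMI in the 343 cells and a level of 68.2 in beta cells. Chrm3, the muscarinic M3 receptor gene, was at 0.819 beside 33.4 in beta cells, and Gabbr2, a subunit gene of the GABA-B receptor, at 1.37 beside 36.4. Igf1r, the IGF-1 receptor gene, was at 22.4 beside 10.6, 11.9 and 40.5 in gamma, alpha and beta cells.

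Some sodium and T-type calcium channel genes were higher than in alpha or beta cells. Of the ion channel list, 1 of 14 compared with gamma, 4 of 15 with alpha and 4 of 18 with beta cells were higher, and 2 of the 18 were lower than in beta cells. Medians were 0.44, 0.34 and 0.34. Scn9a and Scn3a, voltage-gated sodium channel genes, were at 199.6 and 165, beside 108, 40.2 and 63.02 and 94.99, 77.8 and 51.2 in gamma, alpha and beta cells. Cacna1h, a T-type calcium channel gene, was at 31.4 beside 18.8, 3.12 and 2.18. Abcc8, a subunit gene of the ATP-sensitive potassium channel, was at 449 beside 319.8, 298 and 325, under 2-fold in all 3 comparisons.

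Granule and exocytosis genes differed in both directions. Of the granule and prohormone processing list, none was higher and 1 of 16 lower against gamma cells, 4 of 17 were higher and 3 lower against alpha cells, and none was higher and 4 of 16 lower against beta cells, among them Nucb2, which turned to a log2 ratio of 0.16 when scaled to all UMIs. Chgb, a granin gene, was at 8363 beside 4854, 2120.1 and 5374 in gamma, alpha and beta cells, and Chga at 4654 beside 8572, 9949 and 24432. Scg2, another granin gene, was at 6676 beside 5233, 1387 and 4373. Pcsk1, a prohormone convertase gene, was at 109 beside 173, 7.23 and 706, and Pcsk2, the other convertase gene, at 4671 beside 5085, 8300.1 and 5067. Vgf was at 3.82 beside 139 in alpha cells. Of the exocytosis list, 1 of 20 was higher and 2 lower against gamma, 2 of 22 higher and 3 lower against alpha, and 5 of 22 higher and 4 lower against beta cells. The 4 included Syt4 and Syt13, which had log2 ratios of 0.051 and 0.17 when scaled to all UMIs. Rab3b, a vesicle GTPase gene, was at 458 beside 292, 56.8 and 169.96, and Sytl4, granuphilin, at 6.83 beside 1.64, 1.34 and 381.

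Neuronal adhesion and cytoskeleton genes went in both directions. Of that list, 2 of 10 were higher and 1 lower against gamma, 6 of 11 higher and 1 lower against alpha, and 4 of 12 higher and 2 lower against beta cells. List medians were 0.57, 1.05 and 0.29. Gap43, a growth cone protein gene, had a level of 320.01 in the delta cells low in Ppy, 323 in double-rich, 104 in gamma, 7.90 in alpha and 3.04 in beta cells. Tubb3, neuronal beta-tubulin, was at 54.3 beside 15.6, 11.9 and 41.9 in gamma, alpha and beta cells, and Cdh2, N-cadherin, at 238 beside 138, 61.1 and 77.2. Sox9, a progenitor and duct factor gene, was at 127 beside 45.4, 5.34 and 2.42, while Krt7, a duct keratin gene, was at 254 beside 412, 245 and 395. Th, the rate-limiting enzyme gene of catecholamine synthesis, was at 33.04 beside 13.1, 1.11 and 44.5.

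Retinoid and arginine genes were looked at because Rbp4 and Arg1 mark these cells, and the lists hold those markers. Of the retinoid list, 2 genes could be compared with gamma cells, Rbp4 among them, and both were higher. Against alpha cells 2 of 4 were higher and 1 lower, and against beta cells 2 of 3 were higher and none lower. Of the arginine and polyamine list, Arg1 was the only gene at least 2-fold higher, among 8 compared with gamma, 9 with alpha and 9 with beta cells. Srm, the spermidine synthase gene, was at 36.6 beside 87.2, 64.1 and 96.7. Of 27 genes of secreted peptides and paracrine ligands, 23 had a UMI in these cells, Pyy and Iapp included, and Nts, Vip, Adcyap1 and Calcb were at 0. Vegfa, a vascular growth factor gene, was at 140.1, Wnt4 at 42.3 and Sct, the secretin gene, at 25.7. Of this list, 1 of 6 genes was higher and 3 lower against gamma, none of 7 higher and 5 lower against alpha, and 1 of 5 higher and 3 lower against beta cells. Of the 22 Npy UMIs, 20 came from 1 cell.

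Stress and early response genes were compared as well. Of 13 genes of the unfolded protein response compared with gamma, alpha and beta cells, none passed 2-fold against gamma cells, 1 was higher against alpha cells and 2 were lower against beta cells, with a median against beta cells of −0.69. Sdf2l1, an endoplasmic reticulum chaperone complex gene, was at 89.3 beside 551 in beta cells. Of 6 immediate early genes, 4 were higher than in beta cells and none passed 2-fold against the other 3 classes. Egr1 was at 59.5 and Jun at 122, beside 7.88 and 23.5 in beta cells and 79.3 and 118 in double-rich cells.

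The double-rich cells differed least from the delta cells low in Ppy, and cell cycle and exocrine genes were among the differences. The log2 ratio of the markers over double-rich cells was 0.023 for Hhex (−0.077 to 0.12), −0.27 for Rbp4, −0.25 for Ptprz1 (−0.44 to −0.067) and −0.20 for Arg1. Isl1 was at −0.057 and Ghsr levels were 47.5 and 48.9, with overlapping counting intervals. Of the cell cycle list, 6 of 9 genes compared were higher and 1 lower, beside 0.292% and 0.146% of all genes compared. Cenpf, a kinetochore gene, was at 103 beside 15.4, and Mki67, the Ki-67 proliferation antigen gene, at 67.2 beside 15.96. The 377 Cenpf UMIs came from 19 of the 343 cells and the Mki67 UMIs from 18.

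Cycling cells were few in either class. With at least 10 UMIs of the cell cycle list as a cut, 16 of the 343 cells (4.66%) and 6 of the 187 double-rich cells (3.21%) were cycling, against 11.8% of gamma, 14.8% of alpha and 5.37% of beta cells. This cut was not scaled to depth. Median UMIs outside the hormones were 10131, 9938, 12134, 13920 and 14336 in the same order, and the part of depth was not tested. Of the cell cycle list, 7 of 15 genes were higher and 1 lower than in gamma cells, none of 17 higher and 2 lower than in alpha cells, and 10 of 17 higher than in beta cells. All genes stood at 3.81% and 2.15%, 8.69% and 4.18%, and 8.95% higher in these comparisons. Against gamma cells the list thus held more higher than lower genes while the share of cycling cells was 4.66% beside 11.8%. Of the list's UMIs, 251 came from 1 of the 343 cells, and 162 cells had none. For Ube2c, Top2a and Birc5, 5 cells held 85.2%, 66.3% and 63.6% of the UMIs, so their levels describe few cells. With the cycling cells left out, 4 of 5920 genes compared were higher and 7 lower than in double-rich cells, beside 18 and 9 of 6154 with them. Among the 4 were Gc (log2 ratio 1.49), Slc38a5 (1.14) and Sphkap (1.03). Without doublets, in all cells, the Slc38a5 ratio was 0.090, and 80 of its 177 UMIs came from 1 cell called a doublet. Gc encodes the vitamin D-binding protein and Slc38a5 a glutamine transporter, both in the alpha cell list. The 7 lower genes included the exocrine genes Pnliprp1, Prss2, Cpa1, Reg1 and Ctrb1, as well as Cpb2 and B3galnt1. Cpa1 was at 12.8 beside 32.4 and Ctrb1 at 81.1 beside 169, and the part of free exocrine RNA was not tested. By rank over all cells, Ube2c, Hmmr, Spc25, Prc1, Cdca3 and Cenpa were also among the 10 highest, and Slc37a4, Mcm3, Mllt3, Abhd11os, Tspan8, Dlk1, Areg and Enkur among the 10 lowest.

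Some values rest on single cells. Of 177 Slc38a5 UMIs, 80 came from 1 cell, and the level without it was 26.7 in place of 48.3. Ttr was at 362, and at 315 without its highest cell. All 50 Tph1 UMIs, from a serotonin synthesis gene, also came from 1 cell.

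Within the delta cells low in Ppy, depth, the Pyy share and Hhex differed little with the amount of Ppy. The Rbp4, Arg1 and Isl1 medians were highest in the cells with most Ppy. The 51 cells under 0.1% Ppy, the 76 cells between 0.1% and 1% and the 216 cells between 1% and 5% had median Sst shares of 12.0%, 13.5% and 11.4%. Their median Pyy shares were 11.2%, 11.3% and 10.8%, and median depths 14289, 14395 and 14257.5 UMIs. The median Hhex level by cell was 576, 615 and 589. Rbp4 medians were 9611, 11926 and 12530, and Arg1 medians were 878, 923 and 1100, each lowest in the cells with least Ppy, with ranges that overlap widely. Isl1 medians were 796, 747 and 971. Ghsr had a UMI in 23 of 51, 21 of 76 and 74 of 216 cells, and Ptprz1 in 35, 48 and 149.

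**Figure D5:**
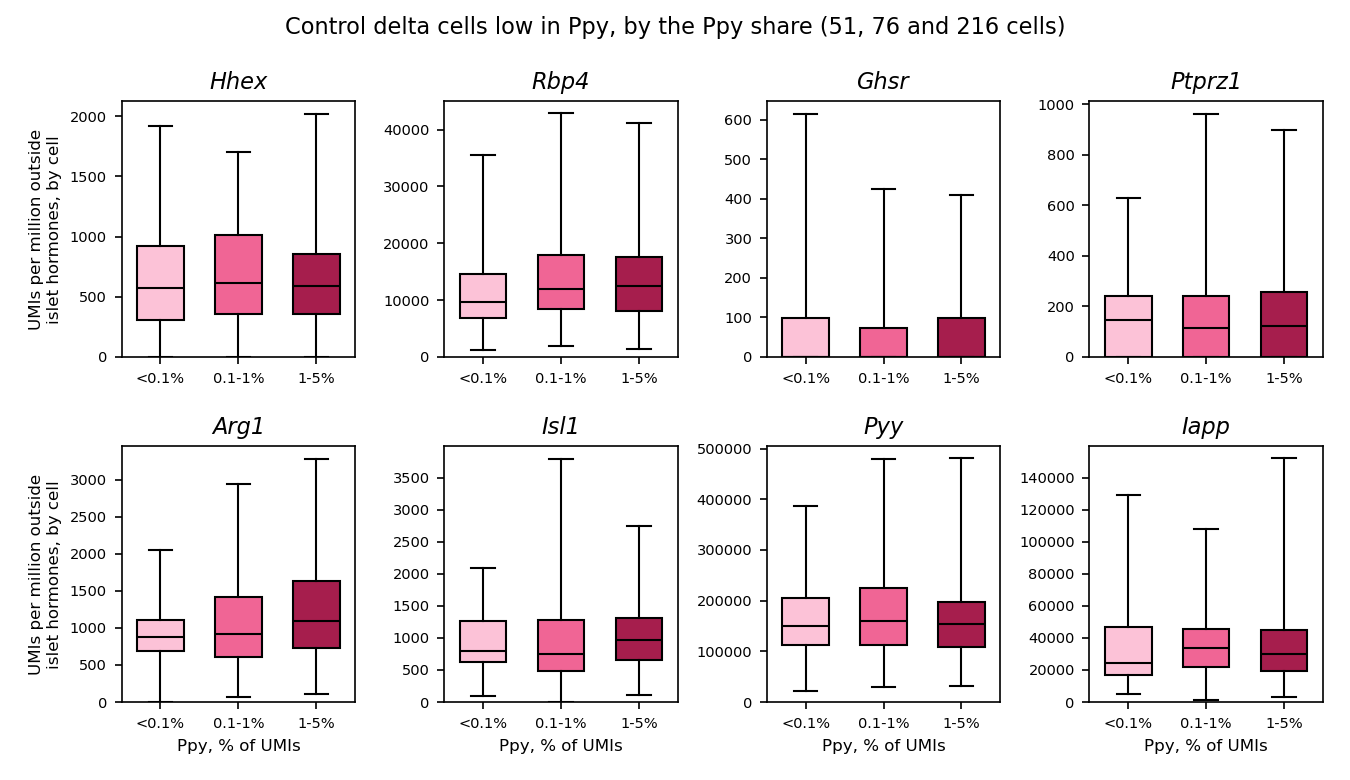
Level by cell of 8 genes in the 343 delta cells low in Ppy, split by the Ppy share of the cell (51 cells under 0.1%, 76 from 0.1% to 1%, 216 from 1% to 5%). Boxes show the quartiles and median, whiskers the lowest and highest cell, and the vertical axes give UMIs per 1000000 UMIs outside the islet hormones. The Hhex medians are 576, 615 and 589, and the boxes of every gene overlap.

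Few genes passed 2-fold between these bins. Against the cells with 1% to 5% Ppy, those under 0.1% had 4 genes higher of 2163 (0.185%) and none lower (0.00%). The 4 were Cenpf, Smc4, Lars2 and Mef2c, the last at 137 beside 55.1. Cenpf and Smc4 are cell cycle genes, and 404 of the 1609 Lars2 UMIs of the 343 cells came from 1 cell called a doublet. Cells with 0.1% to 1% Ppy had 4 genes higher of 3211 (0.125%), the cell cycle genes Cenpf, Spc25, Birc5 and Hist1h1b, and 1 lower (0.0311%), the integrin gene Itgb8 at 26.3 beside 63.7.

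Cells with less Sst differed a little more. The 127 cells with 5% to 10% Sst had 16 genes higher of 5027 (0.318%) and 14 lower (0.278%) than the 190 cells with 10% to 20%. The higher genes are given as a count only, since a few cells, doublet calls among them, held many of the UMIs of some of these genes. Ly6h was lower in the cells with less Sst, at 255 beside 557, and so were Calb1, the calbindin gene, at 18.2 beside 49.3, Rgs4 at 17.5 beside 49.3 and Nhs at 17.5 beside 45.3. The lower genes also held cell cycle and histone genes, such as Ube2c and Hist1h1b, with 85.2% and 84.1% of their UMIs in 5 cells. The 26 cells with at least 20% Sst had 2 genes higher of 1027 (0.195%) and 4 lower (0.389%), among them Ptn, the pleiotrophin gene, at 70.8 beside 206.

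Markers are given here once for the cells on either side of the thresholds. The 48 cells with 4% to 5% Ppy had Hhex at 651, Rbp4 at 13184 and Arg1 at 1236, and the 47 double-rich cells with 5% to 6% had 637, 15225 and 1154. On the Sst side, 19 cells with 5% to 6% Sst had Hhex at 658 and Rbp4 at 12750, and the 11 cells with 4% to 5% Sst that were not counted had 720.3 and 13475, with Ghsr at 46.1 and 8.47 from few UMIs. All control cells with at least 5% Sst numbered 539, of which the 343 were 63.6% (59.4% to 67.7%), 8 had Gcg and 1 had insulin at 5% or more, and the others were double-rich.

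In the Isl1CKO library the same hormone rule held for 5 of 2987 cells (0.167%, 0.0544% to 0.390%), against 13.7% in the control. With the control UMI minimum applied there too, it held for 4 of 2951 (0.136%). Scrublet called 0.167% of the Isl1CKO cells doublets. The 5 cells had 12985, 5403, 11613, 12489 and 14724 UMIs, and Sst shares of 7.61%, 10.6%, 5.34%, 10.6% and 7.31%. In the same order they held 5, 2, 4, 8 and 10 Hhex UMIs, so the gene was seen in each. Their summed Hhex level was 623 (417 to 895), beside 648 in the 343 control cells and 13.5 over all Isl1CKO cells. Isl1 UMIs were 19, 4, 2, 15 and 17, a level of 1225 (928 to 1587). Arg1 was also at 623, and the Rbp4 level was 8641. Ghsr had 4 UMIs in all and Ptprz1 none, which allows a Ptprz1 level of up to 64.5. The genotypes differ by library, pool and deletion at once, and these cannot be told apart.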

How the data were processed

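Islet cells of 2 pooled mouse libraries, 1 per genotype, were profiled as UMI counts per gene and barcode. The authors deposited whole-number counts for 46983 genes, not normalized, per the labels and as the values show. STARsolo (STAR 2.7.3a), the build GRCm38.p6 and Seurat 4.3.0.1, whose role is not stated, come from the submitters' processing notes. The labels do not state the annotation release. The control matrix listed 6794880 barcodes, 1919728 with a UMI, and 89375215 UMIs. The Isl1CKO matrix listed 3020 barcodes, all with at least 4882 UMIs, and 78068592 UMIs. The control minimum of 6825 UMIs is 1/10 of the 99th percentile of UMIs among the 3000 deepest barcodes. Isl1CKO barcodes needed 1000 UMIs.

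UMIs were summed per class and scaled per 1000000 UMIs outside 8 hormone genes. No test was run, since each genotype is 1 library, and genes were counted by size (2-fold, and the level of 50 UMIs in the smaller sum). Intervals at 95% are conditional binomial for ratios, Poisson for sums and Clopper-Pearson for shares, all exact. The ratio script was tested on simulated data. Free RNA came from barcodes of 1 to 100 UMIs. Doublets called by Scrublet (scanpy 1.11.5) were kept in the classes, and left out in an alternative.

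Named genes are the 10 highest and 10 lowest against double-rich and against gamma cells, the 25 highest and 15 lowest against gamma, alpha and beta cells alike, ranked by the interval bound nearest to 1, and members of 26 gene lists, Isl1, Pyy, Iapp and Ghrl. Mitochondrial, ribosomal, uncharacterised, Xist, Y-linked, acinar, erythroid and rule hormone genes were left out of the ranks. Genes that changed between bins of Ppy or Sst, or without cycling cells, were named after their values were seen. Results for some genes are not reported here. The members and lists were chosen with earlier results of these data known. Gene positions are from GENCODE M21 on GRCm38. Alternatives varied the hormone, depth and mitochondrial thresholds, doublets, scaling, minimum count, free RNA, sex of cells, cycling cells and gamma cells with some Sst. The scripts ran in Python 3.11.15 with pandas 2.3.3, numpy 2.4.6, matplotlib 3.10.9 and scipy 1.17.1.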

Additional observations from a re-analysis of the deposited data

Results flagged for a closer look

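Shallow control barcodes that were not counted as cells also held delta-like profiles. Of 266 control barcodes between 1000 UMIs and the minimum of 6825 that passed the gene and mitochondrial filters, 25 met the hormone rule (9.40%, exact Clopper-Pearson 95% interval 6.17% to 13.6%). Their median depth was 3670 UMIs, their median mitochondrial share 5.34% and their median Sst share 8.39%. Hhex was at 427 UMIs per 1000000 outside the hormones (292 to 603), Rbp4 at 6546 (5979 to 7152), Arg1 at 882 and Ptprz1 at 200.4, beside 648, 12777, 1094 and 172 in the delta cells low in Ppy. These barcodes were brought up because they lie outside the cells of the report and carry the same markers. They had a higher mitochondrial share than the cells counted, whose median was 1.37%.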

How the results depend on the processing

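No paired analysis was possible because each genotype is 1 library and all cells compared came from the same control library. The share of control cells that are members of the class was 8.65% with an Sst threshold of 10% and 5.09% with a Ppy threshold of 1%. The number of genes compared changed with each setting, so these counts do not share a base. As reported it was 6154 against double-rich, 7216 against gamma, 8722 against alpha and 8715 against beta cells. With a Ppy threshold of 1%, which left 127 cells, it was 4897, 4955, 5029 and 5177. Genes past 2-fold then numbered 3 lower against double-rich, 141 higher and 89 lower against gamma, 405 and 192 against alpha, 386 and 318 against beta, and 83 higher than all 3. With an Sst threshold of 10% there were 5 of 4204 lower against double-rich, 140 of 6948 higher against gamma and 87 higher than all 3. Per 1000000 of all UMIs, there were 4 of 6276 lower against double-rich, 769 of 7856 higher against gamma, 5924 of 8338 higher and 119 lower against beta, and 339 higher than all 3. A minimum of 20 UMIs gave 95 higher and 37 lower against double-rich, 575 and 286 against gamma, 1187 and 616 against alpha, 1347 higher against beta, and 259 higher than all 3. It compared 9332, 10180, 11241 and 11153 genes with the 4 classes in that order. A minimum of 200 UMIs gave 0 and 2 against double-rich, 77 and 45 against gamma, 278 and 139 against alpha, 242 and 251 against beta, and 48 higher than all 3. By construction it compared fewer genes, 1821, 2463, 3635 and 3796. Without cycling cells 4 of 5920 genes were higher than in double-rich cells, and in cells with Y-linked UMIs and no Xist 5 of 4916 were lower.

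Of the named gene ratios, 3 turned: Nucb2, Syt4 and Syt13 against beta cells to 0.16, 0.051 and 0.17 per 1000000 of all UMIs; the cause was not tested. Named genes past 2-fold stayed so in the same direction in 346 of 348 comparisons without doublets, 349 of 349 after subtracting free RNA, 341 of 352 with the mean of per-cell levels, 350 of 351 at 10000 UMIs per cell, 243 of 260 at a Ppy threshold of 1% and 326 of 346 per 1000000 of all UMIs. The share of calls that were higher against double-rich cells was 36.4% without cycling cells, 80.0% in cells with Y-linked UMIs and no Xist and 87.5% at a Ppy threshold of 1%. Depth limits Ghsr and Crhr2, whose values rest on few UMIs per cell.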

Other observations

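Y-linked transcripts without Xist were found in 73.2% of the delta cells low in Ppy, 70.6% of double-rich, 69.2% of gamma, 70.3% of alpha and 68.8% of beta cells. Xist without Y-linked transcripts was found in 10.8%, 15.5%, 19.0%, 20.5% and 21.5% in the same order. The pool thus held both sexes, and the share of cells by animal is not known.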
